A study of Mus musculus with 6 samples.

Results

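Periocular mesenchyme markers were followed through captures of mouse conjunctival epithelium, to describe how much signal of the neighbouring connective tissue each capture carried. The markers were 9 of the 19053 genes with probes on the array: the collagens Col1a1, Col1a2 and Col3a1, the matrix protein gene Postn, the transcription factor genes Foxc2, Alx4, Twist1 and Prrx1, and the receptor gene Pdgfra. They were taken by gene symbol alone, with every probe that the platform annotation assigned to them, 20 probes in all. The arrays were 6 Illumina bead arrays from mouse embryos at E14.5, 1 for each genotype and region of the conjunctiva. On 3 of them, labelled knockout (KO), the embryos carried Sox9 fx/fx with the Le-Cre driver, and on the other 3 they were labelled wild type (WT). All embryos were of a mixed FVB and 129 background. In each genotype the nasal, temporal and dorsal epithelium was cut from eosin-stained frozen sections by laser, and its RNA was amplified before labelling. Ocular glands arise from the nasal and temporal epithelium, and none from the dorsal.

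Several features limit the groups. Le-Cre acts in the surface ectoderm and its derivatives, so the mesenchyme itself lies outside the cells in which the driver is known to be active. Whether the wild-type embryos carried the driver is not stated in the labels. By the design text cDNA from 3 embryos of a genotype was pooled by region. The protocol for extraction differs, naming the lens as the tissue and a single embryo as its source. The descriptions thus conflict on the tissue as well as on the number of embryos, and the design text was followed here. Arrays of 1 genotype may share embryos. P-values over the arrays therefore do not measure the spread between separate embryos and are too small for that purpose. Each region had 1 array per genotype, and a difference within a region is a value without a replicate check. The Sox9 signal did not bear out the labels. Its brightest probe read 10.20, 10.05 and 9.84 (log2) on the KO-labelled nasal, temporal and dorsal arrays, against 8.28, 10.00 and 10.34 on the wild-type arrays. A second, dimmer probe read 6.19, 5.83 and 6.56 on the KO-labelled arrays, against 5.21, 6.25 and 5.79 on the wild-type arrays. The fitted Sox9 difference was 0.49 (SE 0.50, limma adjusted p = 0.896), so Sox9 was not lower on the KO-labelled arrays as a group, and they are called KO-labelled throughout. The sources used here do not place either probe relative to the deleted part of Sox9.

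The periocular mesenchyme is the loose tissue around the developing eye, derived mainly from the neural crest with a share from mesoderm. It lies directly under the conjunctival epithelium and gives rise to the corneal stroma, the sclera, the connective tissue of the eyelids and the stroma of the ocular glands. Its cells secrete fibrillar collagens and carry the platelet-derived growth factor receptor alpha, whereas epithelial cells lack most of these products. A laser cut along a thin epithelium can include some of this tissue.

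The tissue label was set beside 45 listed epithelial genes. Of these 41 had probes, and 38 passed the filter of detection (p under 0.05) on at least 2 arrays. Each array detected 35 to 38 of the 38, a count that the filter itself keeps high. Cdh1, Epcam, Trp63 and Pax6 were detected on all 6. Keratins of the mature eye surface were sparse, with Krt12 and Krt13 detected on 1 array each. Detected probes made up 39.8% to 45.6% of all probes on the arrays, and median signals lay between 77.3 and 83.7 intensity units.

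Sequence upstream of the markers came from RefSeq promoter windows of assembly GRCm38.p6, which matched 6 of the 9 genes with 7 windows. Alx4, Foxc2 and Col1a1 are named only. The windows of Col1a2 and Col3a1 are printed because these genes had the most similar profile of any pair of markers, and that of Twist1 because its profile differed from theirs. Each shows the 250 bases before the annotated start, 5′ to 3′ on the gene's strand, at chr6:4505368-4505617 for Col1a2, chr1:45311288-45311537 for Col3a1 and chr12:33957421-33957670 for Twist1, all on the plus strand. Capitals mark CCAAT and TATAAA on the printed strand.
Col1a2: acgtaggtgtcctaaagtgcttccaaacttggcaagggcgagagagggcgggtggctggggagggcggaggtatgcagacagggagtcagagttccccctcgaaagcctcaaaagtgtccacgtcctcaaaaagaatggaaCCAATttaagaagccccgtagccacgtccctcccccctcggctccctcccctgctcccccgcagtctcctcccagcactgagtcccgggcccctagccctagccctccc
Col3a1: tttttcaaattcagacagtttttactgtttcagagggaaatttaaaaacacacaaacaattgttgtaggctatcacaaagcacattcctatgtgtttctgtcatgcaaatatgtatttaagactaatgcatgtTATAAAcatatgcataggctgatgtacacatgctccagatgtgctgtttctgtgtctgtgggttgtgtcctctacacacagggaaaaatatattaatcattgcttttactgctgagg
Twist1: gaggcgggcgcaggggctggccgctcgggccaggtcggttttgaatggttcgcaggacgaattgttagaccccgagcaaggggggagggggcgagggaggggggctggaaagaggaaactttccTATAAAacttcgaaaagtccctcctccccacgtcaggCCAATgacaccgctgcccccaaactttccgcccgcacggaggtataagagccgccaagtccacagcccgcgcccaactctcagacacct

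The letters CCAAT were searched on both strands. The same was done for the letters TATAAA and for GGGCGG. The letters CANNTG read alike on either strand. Col1a2 held CCAAT from base 109 to base 105 before the start and GGGCGG at 2 places farther upstream. Col3a1 held no CCAAT and had TATAAA from base 117 to base 112, with 4 CANNTG matches. Twist1 held both CCAAT, from base 89 to base 85, and TATAAA, from base 126 to base 121, with GGGCGG on the opposite strand from base 62 to base 57. Among 32851 promoter windows of this length 33.8% held CCAAT, 12.4% TATAAA, 66.2% CANNTG and 32.7% GGGCGG. The matches are letters in a window and describe no binding.

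Most of the marker probes were dim. Of the 20 probes, 14 were detected above the negative controls (detection p under 0.05) on at least 2 arrays, 6 were detected on all 6 arrays and 6 on none. All 9 genes had a probe that passed the filter of 2 detected arrays, and the brightest of these represented the gene. That probe was detected on all 6 arrays for Col1a1, Col1a2, Col3a1, Foxc2, Postn and Pdgfra, on 5 for Alx4, on 4 for Twist1 and on 2 for Prrx1. Probes differ in brightness for the same amount of RNA, so levels are compared between arrays and never between genes. In such bulk captures fewer mesenchymal cells and less RNA per cell cannot be told apart.

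**Figure D1:**
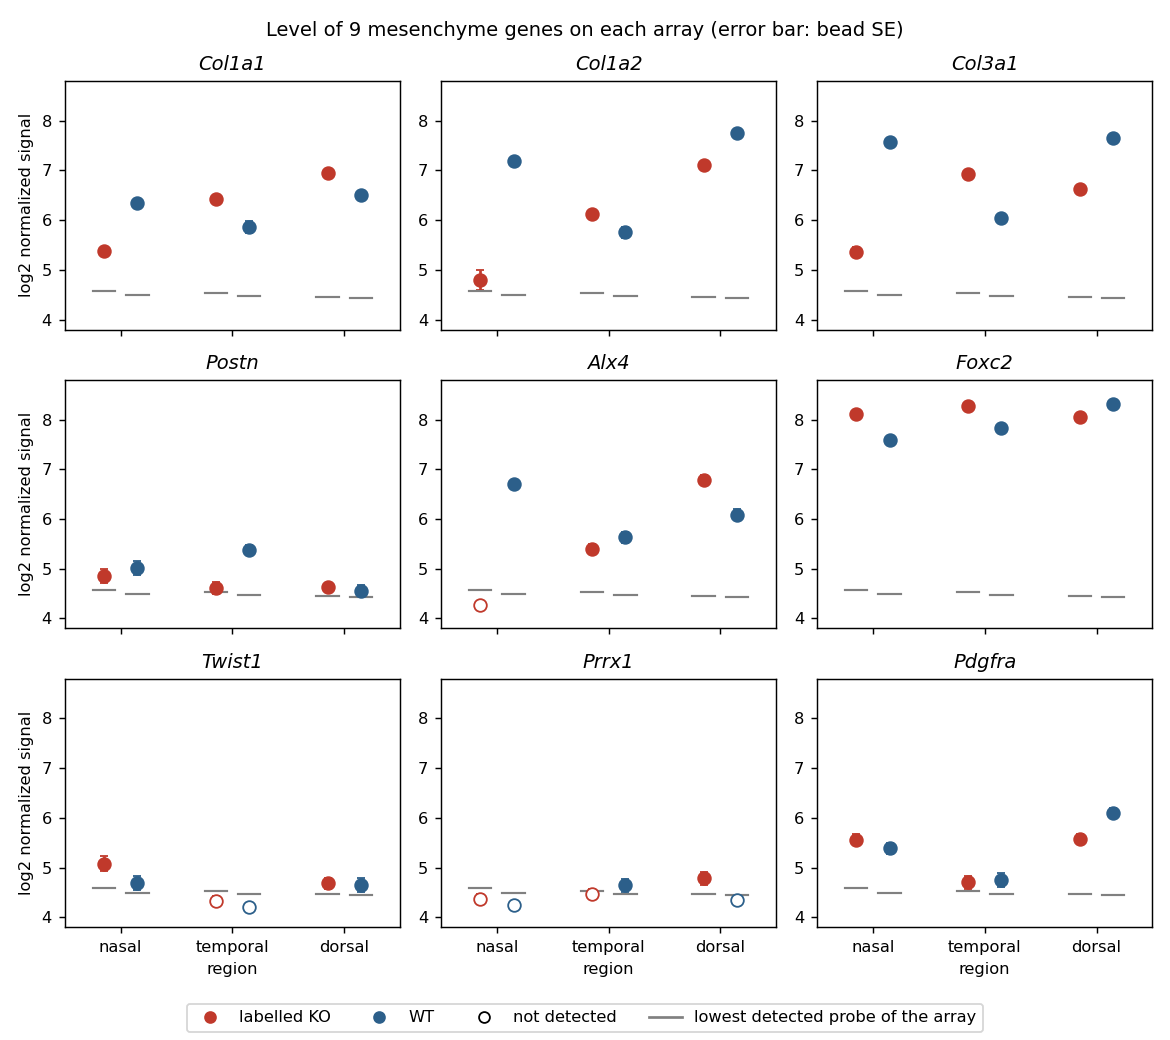
Normalized log2 level of each of the 9 markers (1 panel per gene) on the 6 arrays by region, with KO-labelled (red) left of wild-type (blue) points and the bead standard error as bars. Open points mark arrays on which the probe was not detected, and grey lines the lowest detected level of each array. Alx4, Col1a1, Col1a2 and Col3a1 have their lowest point on the KO-labelled nasal array, at 4.27, 5.39, 4.80 and 5.37.

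The fibrillar collagens and Alx4 had the widest ranges over the arrays among the markers, and the collagens were dimmest on the KO-labelled nasal array. Col1a2, which encodes the second chain of type I collagen, had deposited signals of 89.0, 139.9 and 209.8 intensity units on the KO-labelled nasal, temporal and dorsal arrays, against 186.0, 112.3 and 243.7 on the wild-type nasal, temporal and dorsal arrays. After background correction and normalization its log2 levels were 4.80, 6.12 and 7.11 on the KO-labelled arrays and 7.19, 5.76 and 7.75 on the wild-type arrays. The KO-labelled nasal array stood lowest and both dorsal arrays stood high, with the wild-type nasal array among them, so the genotypes overlapped. Within the nasal region Col1a2 was 5.26-fold lower on the KO-labelled array (log2 difference -2.39, bead SE 0.22). The temporal difference was 0.36 (bead SE 0.15), and the dorsal difference was -0.65 (bead SE 0.12). Bead standard errors cover the reading of 1 array only.

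Col3a1 encodes type III collagen, which forms fibrils together with type I in soft connective tissue. Its brightest probe read 103.0, 200.3 and 167.7 units on the KO-labelled nasal, temporal and dorsal arrays, against 227.2, 123.9 and 232.5 units on the wild-type arrays. The log2 levels were 5.37, 6.93 and 6.62 on KO-labelled arrays, against 7.58, 6.05 and 7.66 on wild-type arrays. Its order thus turned with region: lower on the KO-labelled nasal and dorsal arrays, higher on the KO-labelled temporal array. The differences were -2.21 in nasal (bead SE 0.12, 4.63-fold lower), 0.88 in temporal (bead SE 0.10) and -1.04 in dorsal epithelium (bead SE 0.11, 2.06-fold lower). A second Col3a1 probe gave -0.45, 1.08 and -0.93 in the same regions, with the same signs and a smaller nasal value.

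Col1a1, the gene of the main type I collagen chain, was read by 1 probe at 103.7, 158.4 and 194.5 units on the KO-labelled nasal, temporal and dorsal arrays, against 130.2, 116.2 and 140.8 on the wild-type arrays. The log2 levels were 5.39, 6.42 and 6.94 on KO-labelled arrays, against 6.34, 5.87 and 6.50 on wild-type arrays. It was lowest on the KO-labelled nasal array and highest on the KO-labelled dorsal array. The differences were -0.95 in nasal (bead SE 0.11), 0.55 in temporal (bead SE 0.14) and 0.44 in dorsal epithelium (bead SE 0.12). Col1a1 and Col1a2, whose products join in 1 molecule, therefore had opposite signs in the dorsal region.

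Postn encodes periostin, a matrix protein that binds collagen. Its representative probe was close to background on every array, with 90.2, 88.3 and 86.6 units on the KO-labelled nasal, temporal and dorsal arrays, against 88.6, 100.3 and 83.2 units on the wild-type arrays. In temporal epithelium the log2 level was 4.61 on the KO-labelled and 5.37 on the wild-type array (difference -0.76, bead SE 0.16), and the wild-type temporal array was the highest of the 6. The nasal and dorsal differences were -0.16 and 0.06, each within 1 bead SE (0.20 and 0.14). A second Postn probe was detected on 0 KO-labelled arrays and on 2 wild-type arrays, with 81.0, 73.8 and 80.0 units on the KO-labelled nasal, temporal and dorsal arrays, against 108.3, 86.1 and 74.7 on the wild-type arrays. The remaining Postn probe was detected on none.

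Among the transcription factors Foxc2 was the one read far above background everywhere. It encodes a forkhead factor of the neural crest mesenchyme around the eye. Its signals were 377.0, 410.8 and 346.6 units on the KO-labelled nasal, temporal and dorsal arrays, against 227.3, 284.3 and 333.8 on the wild-type arrays. The normalized levels of the genotypes overlapped: 8.12, 8.27 and 8.06 on KO-labelled arrays, against 7.58, 7.84 and 8.32 on wild-type arrays. The differences were 0.54 (bead SE 0.11) in nasal, 0.43 (bead SE 0.11) in temporal and -0.25 (bead SE 0.09) in dorsal epithelium. The dorsal sign depended on the scaling, with 0.05 under median scaling, which shifted the median of all genes by 0.18 there.

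Alx4 encodes a paired-type homeobox factor of craniofacial mesenchyme. It read 79.9, 109.1 and 180.1 units on the KO-labelled nasal, temporal and dorsal arrays, of which the nasal value was not detected above background, against 149.3, 107.8 and 121.9 units on the wild-type arrays. The log2 levels were 4.27, 5.40 and 6.79 on KO-labelled arrays, against 6.70, 5.63 and 6.09 on wild-type arrays. Alx4 was at least 4.33-fold lower on the KO-labelled nasal array, where the bound sets the lowest detected level of that array against the wild-type value. The temporal difference was -0.22 (bead SE 0.14) and the dorsal difference was 0.70 (bead SE 0.15). A second Alx4 probe, detected on 3 arrays, gave 0.44, 0.61 and -0.24 in nasal, temporal and dorsal epithelium, the opposite sign in each region, so the probes of Alx4 disagreed. The remaining Alx4 probe was detected on none.

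Twist1 encodes a basic helix-loop-helix factor of neural crest mesenchyme, and Prrx1 a homeobox factor of limb and head mesenchyme. Twist1 read 95.0, 82.0 and 87.8 units on the KO-labelled nasal, temporal and dorsal arrays, against 82.5, 74.4 and 84.6 on the wild-type arrays, and was not detected on either temporal array. Its log2 levels were 5.08, 4.32 and 4.68 on KO-labelled arrays and 4.69, 4.20 and 4.64 on wild-type arrays. The KO-labelled nasal array was its highest and both temporal arrays its lowest, while the wild-type nasal array and both dorsal arrays differed by less than their bead errors. The nasal difference of 0.39 (bead SE 0.20) was the largest for Twist1. Prrx1 had 6 probes, and none was detected on more than 3 arrays. Its representative probe was detected on the KO-labelled dorsal array, at 90.0 units, and on the wild-type temporal array, at 85.0 units, and lay between 73.7 and 85.2 units on the others. On those 4 arrays this probe was not well above background, although on the wild-type dorsal array 2 other Prrx1 probes were detected.

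Pdgfra, the receptor gene, was lowest in the temporal region in both genotypes. Its probe read 109.9, 90.2 and 113.2 units on the KO-labelled nasal, temporal and dorsal arrays, against 97.0, 86.9 and 121.8 units on the wild-type arrays. The log2 levels were 5.56, 4.70 and 5.58 on KO-labelled arrays and 5.39, 4.75 and 6.09 on wild-type arrays. Both temporal arrays were the lowest of the 6 and both dorsal arrays the highest, although the KO-labelled dorsal and nasal arrays differed by less than their bead errors. The KO-labelled and wild-type arrays differed by 0.17 in nasal (bead SE 0.16), -0.05 in temporal (bead SE 0.19) and -0.51 in dorsal epithelium (bead SE 0.14). A second Pdgfra probe was detected on no array.

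**Figure D2:**
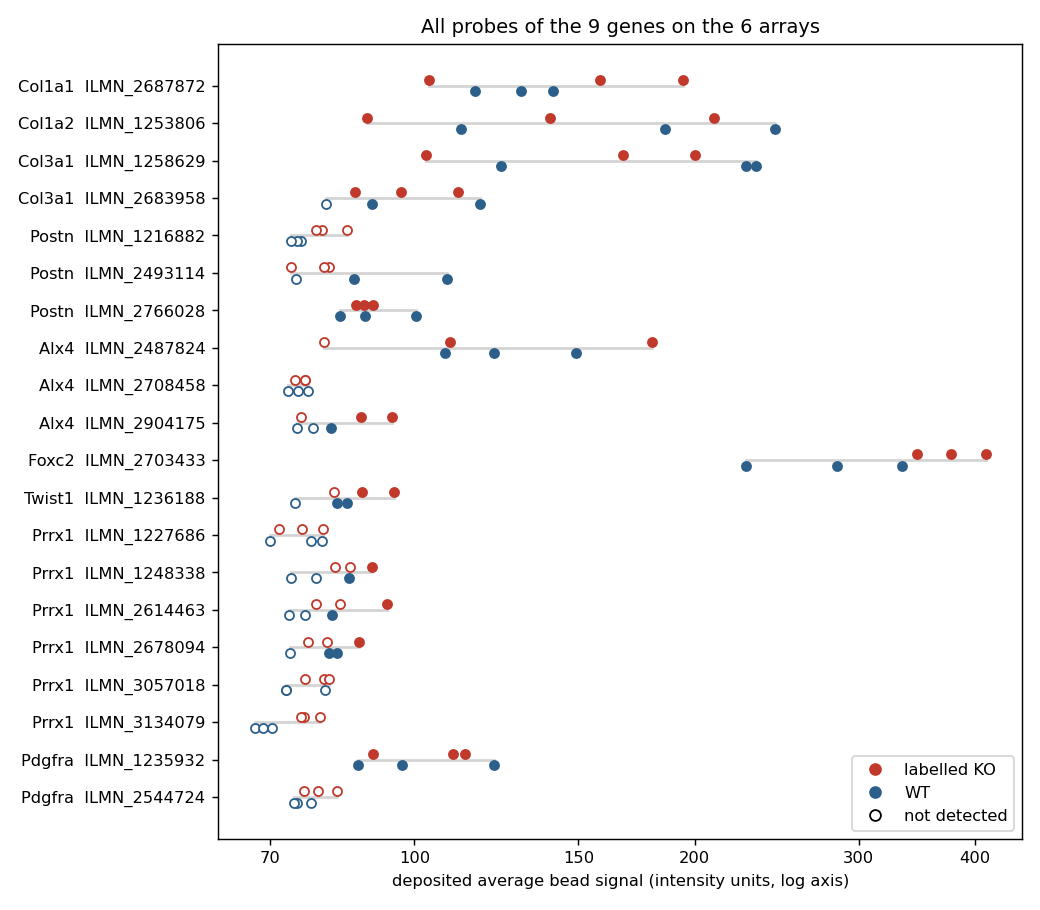
Deposited signal (intensity units) of all 20 marker probes on the 6 arrays, on a log axis, with 1 row per probe, KO-labelled points (red) above wild-type points (blue), and open points where the probe was not detected. The Foxc2 probe reached 410.8 units on the KO-labelled temporal array, and 6 probes were detected on no array.

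The first comparison asked whether the markers differed between KO-labelled and wild-type epithelium over the 3 regions. In a limma fit over all 6 arrays with region as a term, 0 of the 9 markers and 0 of the 11147 genes tested (0%) passed an adjusted p of 0.05. At an unadjusted p under 0.05, 659 of all genes passed, and the smallest adjusted p was 0.814. Alx4, Col1a2 and Col3a1 had the widest estimates, all negative and none past the test. Col1a2 averaged 6.01 ± 1.16 on KO-labelled and 6.90 ± 1.03 on wild-type arrays (log2 level, SD, n = 3 each), a difference of -0.89 (SE 0.53, limma adjusted p = 0.816). Col3a1 averaged 6.30 ± 0.83 on KO-labelled and 7.09 ± 0.91 on wild-type arrays, a difference of -0.79 (SE 0.58, limma adjusted p = 0.85). Alx4 averaged 5.49 ± 1.26 on KO-labelled and 6.14 ± 0.54 on wild-type arrays, a difference of -0.65 (SE 0.60, limma adjusted p = 0.891). Col1a1 averaged 6.25 ± 0.79 and 6.24 ± 0.33 on KO-labelled and wild-type arrays, a difference of 0.01 with a 95% interval from -0.91 to 0.94.

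For Alx4, Col1a2 and Col3a1 the larger of the SDs exceeded the difference. These SDs run over the 3 regions and so include differences between regions, which the region term of the fit takes out. For the other markers the fitted differences were Foxc2 0.24, Twist1 0.18, Prrx1 0.12, Pdgfra -0.13 and Postn -0.28, with standard errors of 0.24 to 0.28. In all, 4 markers were higher and 5 lower on the KO-labelled arrays, with a median of -0.13 against -0.01 over all genes. No marker had all 3 KO-labelled arrays above or below all 3 wild-type arrays, where 5.16% of all genes were above and 6.31% below. Twist1 alone kept 1 sign in all 3 regions, and it was not detected in the temporal region. Its temporal difference was 0.11 (bead SE 0.11) and its dorsal difference 0.04 (bead SE 0.18), so those signs are not resolved. The share of all genes that kept 1 sign was not computed. Without the nasal arrays the difference became -0.14 for Col1a2, -0.08 for Col3a1 and 0.24 for Alx4, and without the temporal arrays -1.52 for Col1a2 and -1.63 for Col3a1. Without the dorsal arrays Alx4 had -1.32.

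**Figure D3:**
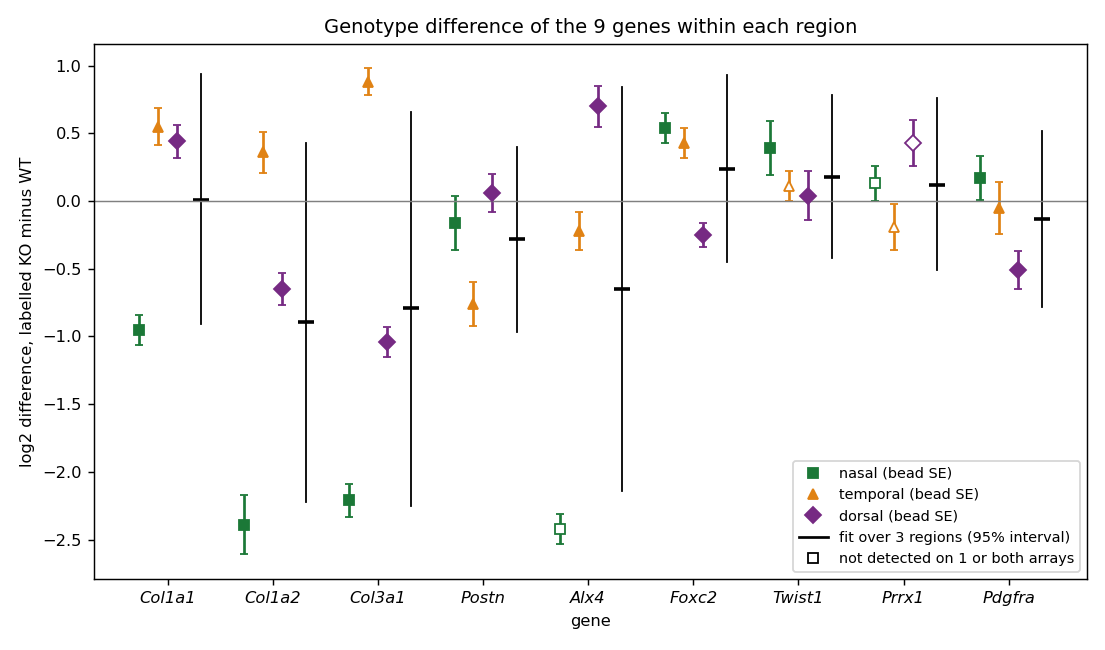
Difference in log2 level, KO-labelled minus wild type, for each marker in the nasal, temporal and dorsal regions with bead standard errors, and, in black, the limma estimate over all arrays with its 95% interval. Open points lack detection on 1 or both arrays. The nasal points of Alx4, Col1a2 and Col3a1 lie at -2.42, -2.39 and -2.21, and every interval of the fit includes 0.

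Within single regions the lower values of the markers were concentrated on the nasal arrays. Of the 8 markers detected on at least 1 nasal array, 3 (Alx4, Col1a2 and Col3a1) were at least 2-fold lower on the KO-labelled array and 0 were at least 2-fold higher. Among all genes detected there 10.4% were at least 2-fold lower and 10.5% at least 2-fold higher. The nasal median over the 9 markers was -0.16, against -0.02 over all genes. In temporal epithelium 0 of 8 markers were 2-fold apart, where 8.55% of all genes were at least 2-fold higher and 8.29% at least 2-fold lower, and the median was 0.11. In dorsal epithelium Col3a1 alone of 9 markers was at least 2-fold lower and 0 were higher, where 3.32% of genes were lower and 3.1% higher by that fold, and the median was 0.04. The dorsal value of Col3a1 was under 2-fold without background correction (-0.73), with an offset of 50 (-0.84), under median scaling (-0.70) and with the mean of its probes (-0.98). Its temporal value passed 2-fold under median scaling (1.09).

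The size of the nasal values depended on the background correction. Without it the nasal differences were -1.23 for Col1a2, -1.31 for Col3a1, -1.08 for Alx4 and -0.47 for Col1a1, and with the mean of a gene's detected probes Alx4 had -0.99 and Col3a1 -1.33. Other measures moved on the same array. The KO-labelled nasal array had the lowest share of detected probes, 39.8%. It had the highest summed signal of 8 tested macrophage markers, which ranged from 123.8 to 274.4 units on KO-labelled arrays and from 41.24 to 129.9 units on wild-type arrays, although Ptprc, C1qb, C1qc and Cd14 were detected on no array. Of these 8 genes 5 were highest on the KO-labelled nasal array and 2, Aif1 and Laptm5, were lowest there. Mrc1, 1 of the 8, was detected on the KO-labelled arrays alone and passed the filter only through them. The sums are therefore no even comparison of the genotypes. The KO-labelled nasal array also had the highest sum of the 4 tested erythroid genes (29.53 to 264.5 units on KO-labelled arrays, 111.8 to 150.3 units on wild-type arrays), with Hba-x, Hbb-bh1 and Slc4a1 detected on none. Of these 4 genes 3 were highest there, while Alas2 was not detected on either nasal array and was highest on the KO-labelled temporal array. The summed epithelial signal was 17380 units on the KO-labelled nasal array, inside the range of the others. Single epithelial genes did move there. Of the 38 tested, 6 were at least 2-fold lower and 3 at least 2-fold higher, where 10.4% of all genes were lower and 10.5% higher. Ehf and Lgals7, not detected on that array, were at least 7.04-fold and 3.87-fold lower, and Esrp2 was 2.36-fold higher. The part of these measures in the marker values was not tested.

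Whether the effect of genotype differed between the dorsal and the gland-forming epithelium was tested with an interaction term. No marker and no gene of 11147 passed (0%), 233 genes had an unadjusted p under 0.05, and the limma adjusted p was 1 for each marker. Alx4 had the largest estimate among the markers, 2.02 (SE 1.08), with a 95% interval from -0.91 to 4.95. The fit left 1 residual degree of freedom, and the median gene had an interval of 1.69 on either side, so differences smaller than that were not detectable for a typical gene.

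The second comparison set the gland-forming nasal and temporal epithelium against the dorsal epithelium. All but 1 of the 9 markers were lower in the gland-forming regions, with a median of -0.66 against 0 over all genes. The share of all genes that was lower was not computed. Wider lists of mesenchyme genes, described below, showed no such shift. Transcription factors had 9 higher and 7 lower (median 0.01), and matrix genes 9 higher and 12 lower (median -0.02). Growth factors and receptors had 9 higher and 8 lower (median 0.01). None of the markers passed the adjusted test, as for all 11147 genes (0%). At an unadjusted p under 0.05, 427 genes passed, Col1a2 and Pdgfra among them. Col1a2 averaged 5.97 in gland-forming and 7.43 in dorsal epithelium, a difference of -1.46 (SE 0.57, limma adjusted p = 0.999). Pdgfra averaged 5.10 in gland-forming and 5.84 in dorsal epithelium, a difference of -0.73 (SE 0.28, limma adjusted p = 0.999). The remaining differences were -0.94 for Alx4, -0.71 for Col1a1, -0.66 for Col3a1, -0.24 for Foxc2, -0.13 for Prrx1, -0.09 for Twist1 and 0.37 for Postn. The differences of Foxc2, Prrx1 and Twist1 were smaller than their standard errors (0.29, 0.27 and 0.26). Col1a1 and Pdgfra had all 4 gland-forming arrays below both dorsal arrays, as had 6.34% of all genes, while 5.06% of genes and no marker had the opposite separation. Single arrays moved these values. Without 1 array the estimate spanned -1.95 (without wild-type dorsal) to 0.07 (without KO-labelled dorsal) for Alx4, and -1.28 (without KO-labelled temporal) to -0.03 (without wild-type temporal) for Col3a1. It spanned -1.08 (without wild-type nasal) to -0.35 (without KO-labelled nasal) for Col1a1, -2.03 to -0.90 for Col1a2 without the same arrays, and -1.02 (without KO-labelled dorsal) to -0.45 (without wild-type dorsal) for Pdgfra.

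A further comparison set nasal against temporal epithelium. The type I and III collagens showed almost no net difference, with nasal below temporal on the KO-labelled arrays and above it on the wild-type arrays. Pdgfra was 0.75 higher in nasal epithelium (SE 0.32, limma adjusted p = 0.717) and Twist1 was 0.63 higher (SE 0.30, limma adjusted p = 0.719), each with both nasal arrays above both temporal arrays, as had 15.2% of all genes. Prrx1 had both nasal arrays below both temporal arrays, as had 17.1% of all genes. Of these arrays its probe was detected on the wild-type temporal array alone, so the order is mostly one of values at background. Since Twist1 was not detected on either temporal array, its level is given as at least 1.31-fold higher in nasal epithelium. The differences of the other 7 markers lay between -0.28 for Col1a1 and 0.05 for Col1a2. None of the 11147 genes passed the adjusted test (0%), and 788 had an unadjusted p under 0.05.

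The markers fell into different patterns over the 6 arrays. Col1a2 and Col3a1 had a Pearson correlation of 0.91 over arrays, Alx4 had 0.87 with Col1a2 and 0.85 with Col1a1, and Col1a1 had 0.84 with Col1a2. These are descriptions over n = 6 arrays that may share embryos within a genotype and that share regions in pairs. The order of Col1a2 levels, highest first, was wild-type dorsal, wild-type nasal, KO-labelled dorsal, KO-labelled temporal, wild-type temporal and KO-labelled nasal, of which wild-type nasal and KO-labelled dorsal differed by less than their bead errors. Twist1 went with Pdgfra (0.69) and not with the collagens (-0.15 to -0.28). Foxc2 had correlations near 0 with Col1a2 (-0.02) and Col3a1 (-0.05), and -0.73 with Postn.

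**Figure D4:**
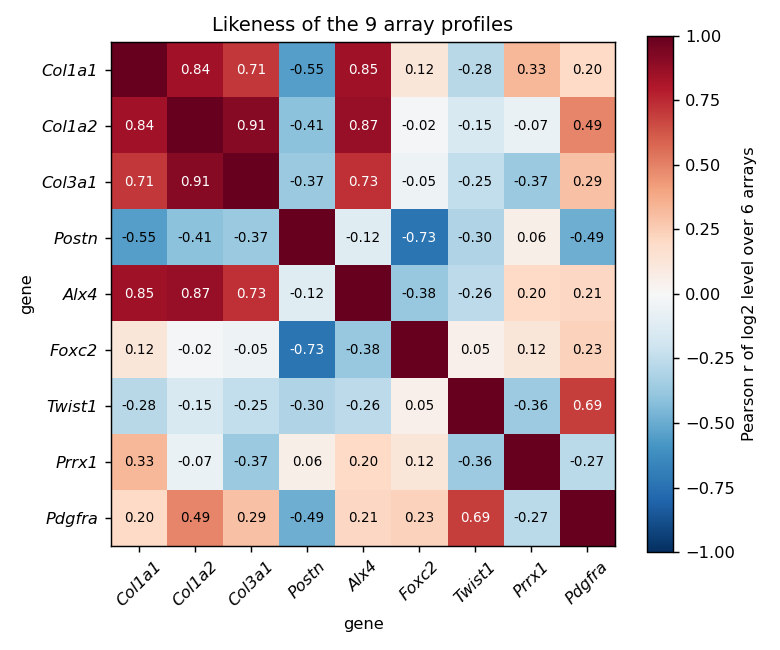
Pearson correlation of log2 levels over the 6 arrays for each pair of the 9 markers, both axes listing the genes and the colour scale giving r. Col1a1, Col1a2, Col3a1 and Alx4 correlate with each other at 0.71 to 0.91, and Foxc2 and Postn have the lowest value, -0.73.

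Against all genes Col1a2, Alx4 and Col3a1 varied widely. The range over arrays was 2.96 log2 units for Col1a2, larger than for 98.4% of tested genes, 2.51 for Alx4 (96%) and 2.29 for Col3a1 (93.9%). It was 1.55 for Col1a1 (76.4%), 1.39 for Pdgfra (69.1%) and 0.88 for Twist1 (38.8%). It was 0.53 for Prrx1 (15.2%), 0.74 for Foxc2 (29.3%) and 0.81 for Postn (34.2%), so the markers did not share 1 spread. The mean of the 9 centred profiles was -0.52, -0.14 and 0.30 on the KO-labelled nasal, temporal and dorsal arrays, against 0.25, -0.27 and 0.38 on the wild-type arrays. Both dorsal arrays and the wild-type nasal array were therefore above the mean, and the others below. The 5 other genes whose profile was most like this mean, among 3036 genes that varied enough to be compared, were Vgll3 (r = 0.982), Rab38 (0.973), Zfp275 (0.972), Tmem183a (0.965) and Dyrk1b (0.962), again over 6 arrays.

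Wider lists of mesenchyme genes did not all show the markers' profile. Of 28 further matrix genes 21 were tested, of which 7 were higher and 14 lower on KO-labelled arrays and none passed the adjusted test (median -0.12). In the nasal region 14 of the 21 were lower, 5 of them at least 2-fold, with a median of -0.37, and 2 were at least 2-fold higher, where 10.4% of all genes were lower and 10.5% higher by that fold. In the temporal region 15 of 21 were higher, 3 of them at least 2-fold, where 8.55% of all genes were. Fn1, the fibronectin gene, had nasal, temporal and dorsal levels of 5.85, 7.75 and 7.76 on KO-labelled arrays, against 7.56, 7.04 and 7.58 on wild-type arrays. Like the collagens it was lowest on the KO-labelled nasal array.

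Col14a1, whose product binds collagen fibrils, differed by -1.27, 0.66 and -0.21 in nasal, temporal and dorsal epithelium. Col5a2, a chain of the type V collagen that starts fibrils, was not detected on the KO-labelled nasal array and was at least 2.67-fold lower there. Its partner chain Col5a1 went the other way, 1.30 higher in nasal and 1.15 higher in temporal epithelium on KO-labelled arrays. The thrombospondin gene Thbs2 was 4.28-fold higher on the KO-labelled nasal array and was detected on the nasal arrays alone. Lum, which encodes the stromal proteoglycan lumican, was 7.11-fold higher on the KO-labelled temporal array. Single matrix genes thus stood on both sides of the wild-type value.

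Transcription factors of the mesenchyme had 6 higher and 10 lower of 16 tested of 30 listed, with a median of -0.08. Tfap2a, a crest and surface ectoderm factor that epithelium also expresses, was 0.95 higher on KO-labelled arrays (SE 0.30, limma adjusted p = 0.814), and Zeb2, a repressor of epithelial genes, was 0.72 higher (SE 0.33, limma adjusted p = 0.814). The fitted differences of Eya1 and Six2 were 0.57 and -0.34, also without passing. Foxc1, the close relative of Foxc2, was detected on all 6 arrays and differed by -0.17 (SE 0.27). The growth factors and receptors had 6 higher and 11 lower of 17 tested of 27 listed, with a median of -0.19. Igf1 had the largest fitted value among them, -1.08 (SE 0.34, limma adjusted p = 0.814), and lay lower on the KO-labelled array in each region.

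The activin-binding protein gene Fst differed by -0.78. Tgfbi, a TGF-beta induced matrix protein gene, was detected on the KO-labelled nasal and dorsal arrays alone and passed the filter only through them. It was at least 2.88-fold higher there in nasal and 1.45-fold higher in dorsal epithelium. The fibroblast surface gene Thy1 was at least 3.44-fold lower on the KO-labelled nasal array, where it was not detected. Collagen-processing enzymes, which epithelial cells also use, were split 11 higher to 11 lower of 22 tested of 33 listed. In the nasal region 6 of the 22 were higher and 15 lower on the KO-labelled array, with a median of -0.11. By at least 2-fold 3 were higher there and 2 lower, where 10.5% of all genes were higher and 10.4% lower. P4ha1, the collagen prolyl hydroxylase subunit, was 10.1-fold higher on the KO-labelled nasal array, at 8.03, against 4.69 on the wild-type nasal array. The KO-labelled nasal array is the one on which Col1a1, Col1a2 and Col3a1 were at their lowest. Crtap differed by 0.82, Plod2 by -0.82 and Mmp2 by -0.43 in the fit. The epithelial list had 21 higher and 17 lower of 38, with a median of 0.02. None of the genes of these lists passed the adjusted test.

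Summed over the 9 markers, the background-corrected and normalized signal was 395.2, 576.6 and 717.9 units on the KO-labelled nasal, temporal and dorsal arrays, against 688.6, 425.4 and 887.7 units on the wild-type arrays. The sum of the 21 matrix genes lay between 3885 and 4391 units on KO-labelled and between 3820 and 4579 on wild-type arrays. That of the 38 epithelial genes was 16800 to 18450 units on KO-labelled and 15040 to 17490 units on wild-type arrays. The marker sum was lowest on the KO-labelled nasal and the wild-type temporal arrays and highest on the wild-type dorsal array, and Foxc2, the brightest probe, weighed most in it. The sum of the 7 tested cartilage genes was 53.7 to 143.6 units on the 3 KO-labelled arrays. On the wild-type nasal, temporal and dorsal arrays it was 330.5, 1954 and 129.9 units, so the genotypes overlapped. The wild-type temporal sum came from Col2a1, Col9a1, Col9a2 and Col9a3, which were highest on that array, while Acan, Col11a1 and Hapln1 were lowest there. The 6 tested nerve and glia genes summed to 796.9 units on the wild-type temporal array, their highest sum, with 3 of the 6 (Sox10, Fabp7 and Ngfr) at their highest there and Erbb3, Mbp and Foxd3 at theirs on KO-labelled arrays. The endothelial genes Pecam1, Cdh5, Kdr and Tek were detected on no array, Tie1, Esam and Cldn5 on 1 array each and Egfl7 on 4. Egfl7, the 1 endothelial gene tested, was highest on the KO-labelled nasal array, at least 2.42-fold above the wild-type nasal array, where it was not detected. The part of these tissues in the marker values was not tested.

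**Figure D5:**
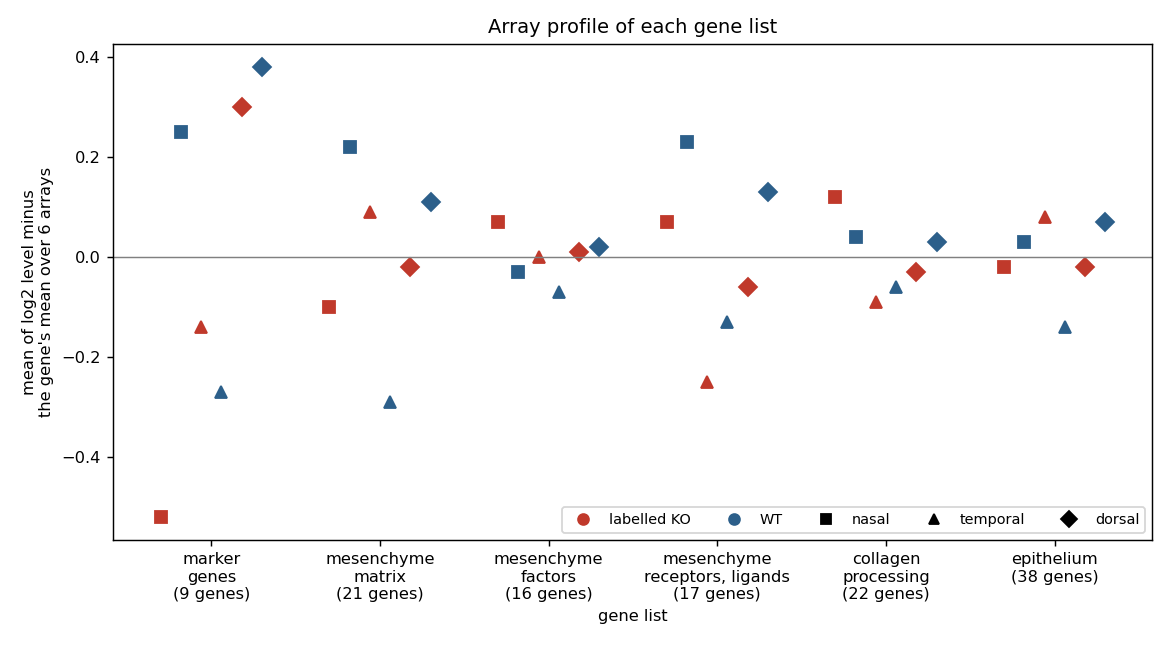
Mean of the centred log2 levels of each gene list on the 6 arrays, with squares for nasal, triangles for temporal and diamonds for dorsal epithelium, and KO-labelled points (red) left of wild-type points (blue) within each region. The 9 markers span -0.52 to 0.38, and the 38 epithelial genes span -0.14 to 0.08.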

How the data were processed

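Per the file headers, the authors' deposited signal table holds the average signal intensity of each probe and array, its standard error over beads, the count of beads and a detection p-value against negative controls. GenomeStudio, without a version, is the tool in the submitters' processing notes. The authors' processed intensity values served as an alternative, with a normalization that no source used here states. Of 45281 probes 34885 had 1 gene symbol, 18 several and 10378 none, and symbols were updated through the gene table of assembly GRCm38.p6. A further 1315 entries without a probe identifier were not used. No source used here gives the array's genome build.

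Signals were background-corrected with limma 3.58.1 in R 4.3.3 (normexp, parameters inferred from detection p-values, offset 16), quantile-normalized and taken to log2. The fold change is that of signal plus offset and understates dim genes. A gene's brightest probe with detection p under 0.05 on at least 2 of 6 arrays represented it, which left 11147 genes. Where 1 array of a pair lacked detection, the fold was a bound against the higher of the probe's value and the lowest detected level of that array. lmFit and eBayes were run with region and genotype, and p-values were adjusted by Benjamini-Hochberg over all genes, threshold 0.05. The code was tested on simulated data. Exact permutation of 3 against 3 arrays cannot reach 0.05 and was left out. Precision is limited by the number of arrays.

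All 9 markers were named. From the other 13 lists the rule named the 4 tested genes with the largest KO-labelled minus wild-type difference and the 4 with the largest gland-forming minus dorsal difference, of which the text gives part. It also took the 5 genes most like the mean marker profile, among those detected on at least 5 arrays with an SD of at least 0.5. Foxc1 was added after its values were seen. The markers and lists were chosen with earlier results of these data known. Alternatives changed the background correction, offset, scaling, filter, probe rule, source of values and region term, or left out arrays.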

Additional observations from a re-analysis of the deposited data

Results flagged for a closer look

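Each entry here has a difference between KO-labelled and wild-type arrays of one sign in one region and the opposite sign in another, both larger than 2 bead standard errors. Each rests on 1 array per genotype and region, and the difference between regions was not tested.

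Col3a1 showed the widest such contrast among the collagens: its nasal difference minus its temporal difference was -3.09 (-2.21 and 0.88), and temporal minus dorsal was 1.92 (0.88 and -1.04). Col1a2 had the same signs, with -2.75 for nasal minus temporal (-2.39 and 0.36) and 1.01 for temporal minus dorsal (0.36 and -0.65). Col1a1 differed from both in dorsal epithelium, with -1.50 for nasal minus temporal (-0.95 and 0.55) and -1.39 for nasal minus dorsal (-0.95 and 0.44). Alx4 had -3.12 for nasal minus dorsal (-2.42 and 0.70), although its second probe had the opposite sign in both regions. Its probe was not detected on the KO-labelled nasal array, where the level was at least 4.33-fold lower, so -3.12 uses a value at background. Foxc2 had 0.79 for nasal minus dorsal (0.54 and -0.25) and 0.68 for temporal minus dorsal (0.43 and -0.25), and its dorsal value was 0.05 under median scaling.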

How the results depend on the processing

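No gene passed the adjusted test under any alternative run, which for the interaction were the processing settings alone. Genes at least 2-fold apart numbered 2161 in nasal, 1761 in temporal and 677 in dorsal epithelium, but 536, 387 and 57 without background correction, 876, 637 and 134 with an offset of 50, and 440 in dorsal with the mean of detected probes. The nasal median over the markers, -0.16, became -0.55 at detection p under 0.01, which leaves 8 markers, and -0.82 with the mean of probes. Median scaling shifted all genes by a median of 0.13 in nasal, 0.07 in temporal and 0.18 in dorsal epithelium. Among the fitted differences of the markers, processing turned the sign only of nasal minus temporal, for Alx4 (0.09 without background correction, 0.10 with offset 50), Col3a1 (0.08 and 0.06 under the same settings), Col1a2 (-0.09, median scaling) and Postn (0.29, mean of probes). Within regions it turned Foxc2 in dorsal (0.05, median scaling) and Alx4 in temporal (0.19, mean of probes), and the dorsal median of the markers became -0.11 at detection p under 0.01. Leaving out both arrays of a region turned KO-labelled minus wild type for Alx4 (0.24 without nasal), Col1a1 (-0.20 without dorsal, -0.25 without temporal), Pdgfra (0.06 without dorsal) and Prrx1 (-0.03 without dorsal). Leaving out 1 array leaves a lone array for a region, which its region term fits exactly. KO-labelled minus wild type is then the same as without both arrays of that region, so it is no further check. These values spanned -1.32 to 0.24 for Alx4, -0.25 to 0.50 for Col1a1, -0.28 to 0.06 for Pdgfra and -0.03 to 0.28 for Prrx1. In the contrasts between regions, where the lone array is assumed to vary like the others, leaving out 1 array turned more signs. Gland-forming minus dorsal spanned -1.95 to 0.07 for Alx4, -0.60 to 0.13 for Foxc2, -0.36 to 0.09 for Prrx1 and -0.19 to 0.02 for Twist1. Nasal minus temporal spanned -1.36 to 1.30 for Alx4, -1.0 to 0.45 for Col1a1, -1.07 to 1.18 for Col1a2, -1.27 to 1.24 for Col3a1, -0.43 to 0.02 for Foxc2 and -0.41 to 0.31 for Postn. The causes were not tested. The arrays pair by region, and the region term of the fit is that block. Without it no gene passed either (smallest adjusted p 0.437). The estimates themselves cannot move in this balanced design, so their unchanged signs are no check. Twist1, Postn and Prrx1 lay near background, where small differences cannot be resolved.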
